A study of Rattus norvegicus with 11 samples.

Results

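Collagen transcripts were described in the soleus, a slow-twitch calf muscle that holds posture, of 11 male Sprague Dawley rats aged 12 months. A collagen chain was any row of the count table named Col, digits, a and digits, which gave 25 of 16810 rows: 10 fibrillar chains, 3 chains of type IV (the basement membrane class) and 12 others. The dams of 6 animals ate control chow (10% sucrose with fat given as 6% in one label and 7% in another), and the dams of 5 ate a high-fat diet (20% sucrose with fat given as 23.3% or 23.5%). The dams' diets began 3 weeks before mating and ran through pregnancy and lactation. All offspring were weaned at day 21 onto standard chow, so the groups shared strain, sex, age and own diet, and each animal came from its own litter. The comparison asks whether a dam's diet is followed by a different muscle transcriptome in adult offspring.

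Collagens are trimers of chains wound into a triple helix, and each chain has its own gene. Fibrillar collagens, types I, III, V and XI among them, build the fibrils of tendon and of the connective tissue sheaths around and within muscle, and in muscle are made mainly by fibroblasts. Type IV collagens form the sheet-like network of the basement membrane that wraps each muscle fibre and capillary, and other collagens sit on fibril surfaces, link matrix to cells or span the cell membrane.

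The promoter letters of 4 chains are shown because these chains stand for the transcripts that varied together across animals (Col1a2 and Col5a2) and for the type IV chains, whose r with them was lower (Col4a1 and Col4a3). The sequences are RefSeq's, assembly GRCr8, read 5′ to 3′ on the strand of the gene, and capitals mark, on either strand, the CCAAT box, the TATA box letters TATAAA and the GC box letters GGGCGG. Of the 25 chains, 20 matched the RefSeq promoter table, and Col1a1, Col2a1, Col3a1, Col6a2 and Col14a1 were not among them. The Col1a2 stretch, chr4:33518307-33518416 on the plus strand, covers bases 250 to 141 before the annotated start and holds CCAAT as its reverse complement ATTGG and, farther along, TATAAA. The Col5a2 stretch, chr9:55090152-55090301 on the minus strand, is the 150 bases before the start and holds none of the 3 motifs. The Col4a1 stretch, chr16:84885521-84885596 on the plus strand, is the whole 76 bases between the starts of Col4a1 and its oppositely transcribed neighbour Col4a2. The Col4a3 stretch, chr9:91323840-91323989 on the plus strand, is the 150 bases before its start, within the 412 bases that separate it from the start of Col4a4, which is transcribed the other way.
Col1a2: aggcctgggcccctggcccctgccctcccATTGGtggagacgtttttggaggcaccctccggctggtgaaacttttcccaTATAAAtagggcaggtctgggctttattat
Col5a2: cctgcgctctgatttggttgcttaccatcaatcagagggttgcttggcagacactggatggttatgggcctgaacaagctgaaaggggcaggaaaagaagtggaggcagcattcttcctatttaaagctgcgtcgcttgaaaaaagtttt
Col4a1: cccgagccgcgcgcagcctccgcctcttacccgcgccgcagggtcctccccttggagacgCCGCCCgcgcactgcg
Col4a3: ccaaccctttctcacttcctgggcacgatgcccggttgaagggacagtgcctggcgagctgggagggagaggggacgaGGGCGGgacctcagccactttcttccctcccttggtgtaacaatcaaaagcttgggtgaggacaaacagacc

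In the 250 bases before the start, on both strands, CCAAT was found in 5 of the 20 matched chains (Col1a2, Col4a1, Col5a3, Col11a1 and Col17a1), against 34.0% of all 33469 promoters. TATAAA was found in 3 of 20 (Col1a2, Col13a1 and Col17a1), against 12.9% of all promoters. GGGCGG was found in 12 of 20, including Col4a1, Col4a3, Col5a1 and Col18a1, against 30.5% of all promoters. Each motif was counted on its own, also where its letters overlap those of another, and a match is a run of letters only. Neighbouring chains in the annotation that both had a row were Col3a1 with Col5a2 and Col4a3 with Col4a4.

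Count totals were 10.2 to 15.4 M per library (M, mega). The 8 slow soleus fibre markers summed to 81200 to 99502 CPM in control animals and 70393 to 100677 CPM in high-fat animals, where CPM is counts per M counts scaled by edgeR's TMM method (trimmed mean of M values). The 6 markers of cartilage and bone that had a row were each under 1 CPM on average. The library of control 5 stood apart in nerve: its 6 nerve and Schwann cell markers summed to 2022 CPM, against at most 327 CPM in any other library.

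Collagens gave 317152 of the reads counted over the 11 libraries, 0.0949 to 0.382% of counts in a control library and 0.121 to 0.322% in a high-fat library. Type I and type III chains dominated these reads: Col3a1, Col1a1 and Col1a2 held 59.0% of them, ahead of Col4a1 with 10.7%, Col6a2 with 8.84% and Col14a1 with 5.71%. Over all animals 13 chains averaged above 10 CPM, 7 lay between 1 and 10 CPM, and 5 lay below 1 CPM. Reads rise with transcript length, and no lengths were at hand, so these figures rank reads and not molecules. In bulk muscle, fewer cells of a type and less RNA per cell cannot be told apart. A further 20 rat collagen genes, among them Col4a2, Col6a1, Col6a3 and Col12a1, have no row in the counts used here and are not analysed. The shares above are therefore of the analysed chains only.

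Col3a1, the chain of type III collagen, which mixes with type I in pliable fibrils, gave the most reads. Its level ran from 302 through a median of 593 to 1161 CPM in control animals, and was 313, 305, 823, 827 and 899 CPM in high-fat animals 1 to 5. The high-fat animals thus fell in a low pair and a high trio, both inside the control range. Col1a1, which encodes the alpha 1 chain of type I collagen, the main load-bearing fibril, ran from 155 through 306 to 699 CPM in control animals. In high-fat animals 1 to 5 Col1a1 stood at 124, 167, 464, 355 and 432 CPM. High-fat 1 lay below every control animal, and control 3 above every other animal. Col1a2, the alpha 2 chain of the same molecule, ran from 144 through 290 to 563 CPM in control animals and was 155, 174, 438, 448 and 447 CPM in high-fat animals 1 to 5.

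The other fibrillar chains were lower. Type V chains, which copolymerise with type I and limit fibril width, averaged 81.7 CPM for Col5a2, 48.4 CPM for Col5a3 and 47.2 CPM for Col5a1 over 11 animals. Type XI chains, the cartilage relatives of type V, stood at 3.43 CPM for Col11a2 and 2.96 CPM for Col11a1. Col27a1 averaged 1.20 CPM. Col2a1, the main cartilage collagen, had 23 reads in all 11 libraries.

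**Figure D1:**
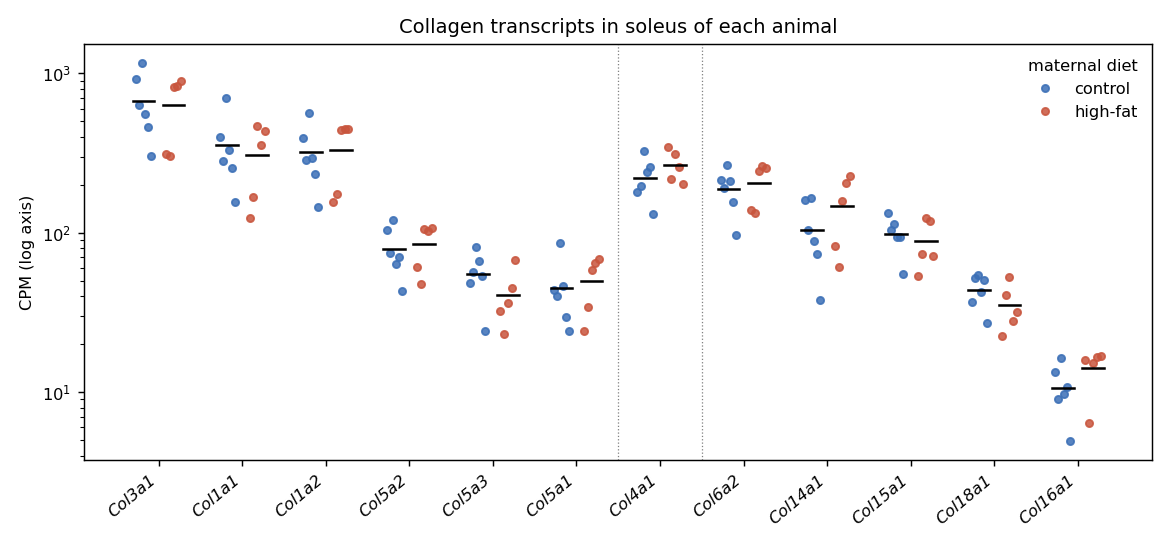
Level of the 12 collagen chains with the most reads, in CPM on a log axis, with 1 point per animal (6 control, 5 high-fat) and a bar at each group's mean; dotted lines separate fibrillar chains, type IV and other chains. For Col3a1, Col1a1 and Col1a2 high-fat animals 1 and 2 lie low and high-fat animals 3 to 5 lie high, and in every chain the groups overlap.

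Among basement membrane chains, Col4a1, part of the type IV network found in nearly all tissues, ran from 130 through 218 to 327 CPM in control animals. High-fat animals 1 to 5 had 344, 217, 313, 260 and 203 CPM of Col4a1. Here high-fat 1, lowest of all for Col1a1, was the highest of all. Col4a3 and Col4a4, chains of the specialised type IV network best known from kidney glomeruli, averaged 3.41 and 0.991 CPM. Col4a3 ran from 2.20 through 2.55 to 4.93 CPM in control animals and was 3.99, 3.09, 3.68, 4.46 and 4.66 CPM in high-fat animals 1 to 5. All 5 high-fat animals lay above the control mean of 2.94 CPM for Col4a3, while control 3 lay above them all.

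Of the other chains, Col6a2, part of the type VI microfibrils that tie fibre basement membranes to the surrounding matrix, averaged 189 ± 57.9 CPM in control (SD, n = 6) and 206 ± 64.1 CPM in high-fat animals (SD, n = 5). Col14a1 and Col16a1 code for collagens that bind fibril surfaces. Col14a1 averaged 105 ± 49.6 CPM (SD, n = 6) and 147 ± 72.8 CPM (SD, n = 5), and Col16a1 10.7 ± 3.86 CPM (SD, n = 6) and 14.2 ± 4.38 CPM (SD, n = 5). Col15a1 and Col18a1, the proteoglycan-like collagens of basement membrane zones, averaged 98.7 ± 25.8 and 43.8 ± 10.5 CPM in control animals (SD, n = 6). In high-fat animals Col15a1 averaged 88.2 ± 31.5 CPM and Col18a1 35.1 ± 12.0 CPM (SD, n = 5). Col8a1, a short-chain collagen of vessel walls, ran from 4.34 through 9.14 to 15.7 CPM in control animals and was 15.5, 6.40, 15.1, 13.6 and 17.9 CPM in high-fat animals 1 to 5.

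The remaining chains were rare. Col7a1, the anchoring fibril collagen, averaged 2.10 CPM over 11 animals. The transmembrane collagens Col17a1, Col23a1 and Col13a1 averaged 1.66, 1.08 and 0.780 CPM. Col9a1 and Col9a2, which coat cartilage fibrils, had 21 and 51 reads in all libraries, and Col9a1 had none in 4 of them. A count of 0 allows up to 3 counts, or 0.195 to 0.295 counts per M by library before TMM scaling. Such limits cover counting error only.

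Some rare chains stood high in the nerve-rich library of control 5, and others did not. It held 14 of the 21 reads of Col9a1, 14 of the 51 of Col9a2, 8 of the 23 of Col2a1 and 63 of the 159 of Col23a1. Its Col23a1 level was 4.32 CPM, against at most 1.39 CPM elsewhere, and the other control animals averaged 0.746 ± 0.411 CPM (SD, n = 5). Col4a4, Col7a1, Col13a1 and Col17a1 stood at 0.685, 2.19, 0.891 and 1.64 CPM in control 5, inside the range of the other control animals. Mbp, a myelin protein, stood at 844 CPM in the same library, against at most 96.8 CPM in the others. The cartilage and bone markers were also highest there, summing to 3.15 CPM, against 0.751 to 1.14 CPM in the other control animals and at most 2.34 CPM in high-fat animals. The part of nerve or cartilage RNA in these counts was not tested.

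Collagen levels were among the more variable transcripts between animals. The standard deviation of log2 CPM over 11 animals had a median of 0.61 over the 22 chains that passed the filter on low counts, against 0.27 over all 10814 genes that passed. Each of the 22 lay above that median, from Col4a3 at 0.41 to Col17a1 at 0.90. Col1a1 spanned 5.63-fold from its lowest to its highest animal, Col14a1 5.95-fold, Col3a1 3.84-fold, Col4a1 2.64-fold and Col18a1 2.39-fold. Rare chains carry more counting error in this figure than abundant ones.

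Summed over all 25 chains, collagen came to 2219 ± 890 CPM in control animals (SD, n = 6) and 2240 ± 812 CPM in high-fat animals (SD, n = 5). The difference of 20.8 CPM was far inside the spread between animals, and ranged from -211 CPM without control 6 to 314 CPM without control 3. High-fat animals 1 and 2 summed to 1396 and 1308 CPM, and high-fat animals 3 to 5 to 2871, 2762 and 2862 CPM. Control animals ran from 1059 to 3687 CPM. Fibrillar chains made up 51.1, 58.1, 67.5, 66.9 and 70.9% of the sum in high-fat animals 1 to 5, against 62.7 to 73.8% in control animals. Type IV made up 25.0, 16.9, 11.1, 9.63 and 7.31%, against 6.79 to 14.6% in control animals. High-fat animals 1 and 2 lay outside the control range in both shares and the other 3 inside it.

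**Figure D2:**
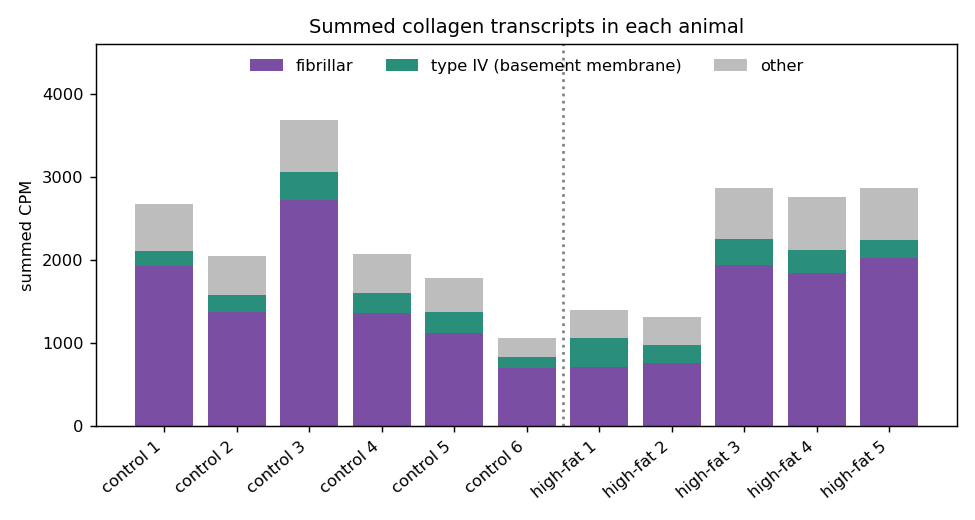
Summed CPM of the 25 collagen chains in each animal, split into fibrillar, type IV and other chains, with a dotted line between control and high-fat animals. Sums run from 1059 CPM in control 6 to 3687 CPM in control 3, and high-fat animals 1 and 2 lie at 1396 and 1308 CPM while high-fat animals 3 to 5 lie between 2762 and 2871 CPM.

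Fibroblast and tendon markers moved with Col1a1 in part. The 9 fibroblast markers summed to 2295 to 7180 CPM in control animals and 3849 to 8563 CPM in high-fat animals, with the lowest sum in control 6, and their sum had r = 0.69 with Col1a1 over 11 animals. The 6 tendon markers with a row summed to 136 to 592 CPM in control and 250 to 656 CPM in high-fat animals, with r = 0.64. Each sum was mostly 1 gene. Gsn averaged 3510 of 4804 CPM of the fibroblast sum in control animals and 4725 of 6545 CPM in high-fat animals. Thbs4 averaged 207 of 297 CPM and 420 of 508 CPM of the tendon sum. With Col4a1 the fibroblast and tendon sums had r = 0.49 and 0.63. Over the other marker lists, r with Col1a1 ran from -0.65 for smooth muscle to 0.41 for macrophages. The smooth muscle sum was mostly Des, at 5504 of 5853 CPM in control animals. These r are descriptions, and all values come from the same libraries. High-fat 1, low in Col1a1, had a fibroblast sum of 5338 CPM, above 4 of the 6 control animals. The part of cell content in the collagen levels was not tested.

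The abundant fibrillar chains tested as pairs varied together. Pearson's r between log2 CPM of Col1a1 and Col1a2 was 0.97 over 11 animals (permutation p = 1e-05, the smallest that 100000 pairings can give, adjusted 0.00015 over 15 relations; Spearman's rho 0.93, p = 0.00015). Between Col1a1 and Col3a1 r was 0.96 (permutation p = 2e-05, adjusted 0.00015; rho 0.90, p = 0.00039). The relation was not limited to chains of 1 molecule: Col1a1 with Col6a2, a pair chosen after the rows were seen, had r = 0.89 (permutation p = 0.00012, adjusted 0.0006; rho 0.91, p = 0.00034). Col5a1 with Col5a2 had r = 0.84 (permutation p = 0.00158, adjusted 0.00592; rho 0.85, p = 0.0015). Without the 2 animals farthest from the median of the first gene, the 4 values were 0.95, 0.94, 0.90 and 0.83, and with the group means removed they were 0.98, 0.96, 0.94 and 0.84. Both chains of a pair share a library and its scaling.

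Relations of type IV chains did not pass the test. Col1a1 with Col4a1 had r = 0.26 (permutation p = 0.446, adjusted 0.608; rho 0.17, p = 0.613). This value rested on single animals: r was 0.67 without high-fat 1 and -0.02 without control 6, and 0.47 without both. Col4a1 with Col15a1, both of basement membrane zones, had r = 0.23 (permutation p = 0.499, adjusted 0.623; rho 0.05, p = 0.881; 0.29 without control 6 and high-fat 1, 0.63 without high-fat 1 and -0.18 without control 6). Col4a3 with Col4a4, neighbours transcribed away from each other, had r = 0.53 (permutation p = 0.0961, adjusted 0.231; rho 0.49, p = 0.129; 0.39 without control 3 and high-fat 5). The difference between these r and those of the fibrillar pairs was not tested.

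As a description, the 231 pairs among the 22 chains had a median r of 0.35. The 36 pairs of fibrillar chains had a median of 0.71, from -0.05 to 0.99, with Col11a2 and Col27a1 at only 0.25 and 0.31 with Col1a1, and the 10 pairs among Col1a1, Col1a2, Col3a1, Col5a1 and Col5a2 had a median of 0.95, from 0.84 to 0.99. Col6a2 and Col14a1, which are not fibrillar, had r = 0.94 with each other and 0.89 and 0.79 with Col1a1. Col8a1 and Col16a1 had r = 0.90 with each other and 0.71 and 0.69 with Col4a1, against 0.50 and 0.59 with Col1a1. Col18a1 had r = 0.86 with Col11a2. Col7a1 ran the other way, with r = -0.59 with Col1a1 and -0.69 with Col11a1.

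**Figure D3:**
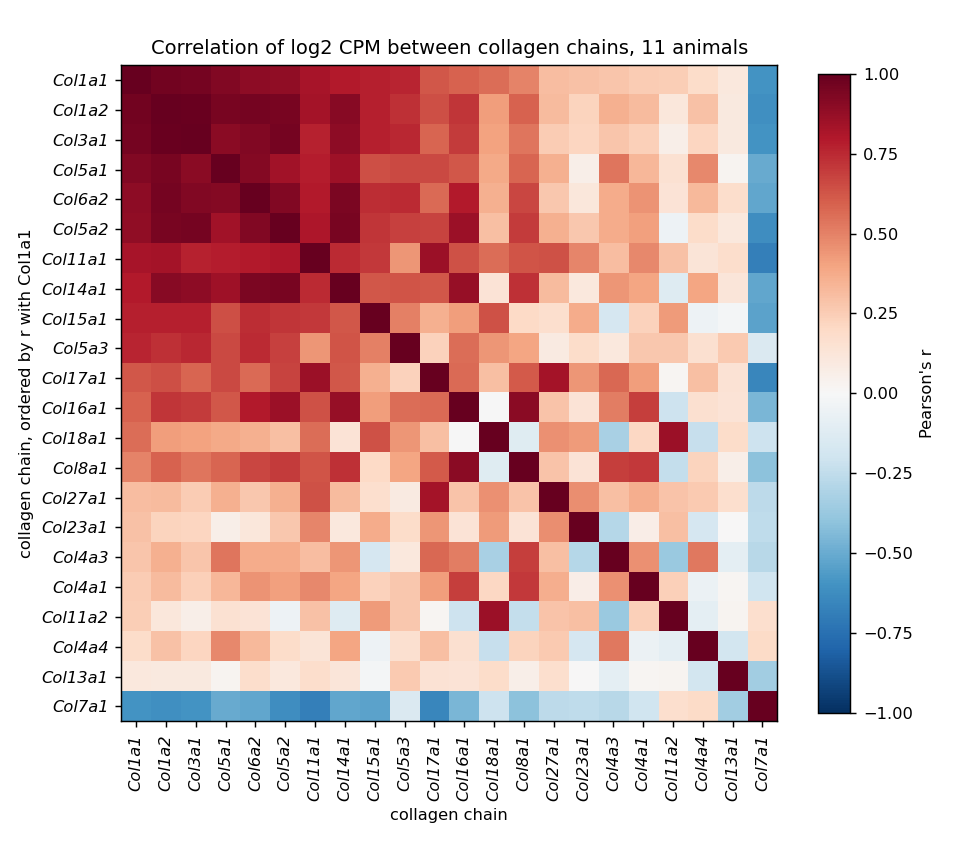
Pearson's r of log2 CPM over 11 animals between each pair of the 22 collagen chains that passed the filter, ordered by r with Col1a1, on a colour scale from -1 (blue) to 1 (red). The dark red block at the upper left holds Col1a1, Col1a2, Col3a1, Col5a1, Col6a2 and Col5a2, Col4a1 is pale against that block, and the row of Col7a1 is mostly blue.

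Of genes that are not collagens, those most like Col1a1 by r over 11 animals were Cd276 at 0.97, Loxl2, a lysyl oxidase-like enzyme of collagen cross-linking, at 0.96, Thy1, a fibroblast surface protein, at 0.94, C1qtnf5 at 0.94 and Zmynd15 at 0.93. Those most like Col4a1 were Phactr2 at 0.91, Cd9, a tetraspanin, at 0.90, Vwa1, a basement membrane protein, at 0.89, Rassf9 at 0.89 and Brf1 at 0.88. These genes were picked as the highest of all tested, so the values are descriptions.

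No collagen chain was called different by maternal diet. In edgeR's quasi-likelihood test over 10814 genes, 0 of 22 chains had an adjusted p under 0.05, against 0.00% of all genes, and the lowest adjusted p of a chain was 0.974. At an unadjusted p under 0.05 the test counted 523 genes, 3.45% of all genes higher and 1.39% lower in the high-fat group, and 0 collagen chains. That last count ran up to 3 (Col4a3, Col8a1 and Col17a1, without control 3) when single animals were left out. Other tools called 7 genes (DESeq2), 8 (the likelihood ratio test of edgeR) and 0 (limma voom), with 0 collagen chains each. The control and high-fat animals overlapped in all 22 chains, where 0.37% of all genes did not overlap. Col2a1, Col9a1 and Col9a2 did not pass the filter and have no test.

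The log2 fold change, high-fat against control, was above 0 in 15 of 22 chains and below 0 in 7, where 50.9% of all genes were above 0. The count was 11 of 22 without control 6, 12 of 22 without high-fat 5, and 10 of 22 without high-fat animals 4 and 5, a pair known from earlier results. Its median was 0.14 over the 22 chains and 0.004 over all genes. The median was 0.06 for fibrillar chains (5 above 0, 4 below), 0.45 for type IV (3 of 3 above) and 0.14 for other chains (7 above, 3 below). With Col15a1 and Col18a1 counted as basement membrane chains, that class had a median of 0.27. Leaving out 1 animal at a time, the median over all chains ran from 0.006 without control 6 to 0.27 without control 3. The fibrillar median ran from -0.09 without control 6 to 0.25 without control 3 and was below 0 in 5 of these 11 cases, while the type IV median ran from 0.31 to 0.53. Without high-fat animals 4 and 5 the median was -0.10 over all chains, -0.21 over fibrillar chains, 0.30 over type IV and 0.009 over other chains.

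Among fibrillar chains the log2 fold changes were -0.19 ± 0.39 for Col1a1 (SE), 0.06 ± 0.36 for Col1a2 and -0.09 ± 0.37 for Col3a1. None of these exceeded its standard error, and which of them were above 0 changed when single animals were left out. The type V chains differed in sign: Col5a1 stood at 0.15 ± 0.33, Col5a2 at 0.10 ± 0.27 and Col5a3 at -0.43 ± 0.29, with an unadjusted p of 0.17 for Col5a3 in edgeR's test. Col11a1 and Col27a1 were at 0.50 ± 0.44 and 0.52 ± 0.42, and Col11a2 was at -0.43 ± 0.38.

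The chains with the smallest p were Col8a1, with a log2 fold change of 0.65 ± 0.33, Col4a4 with 0.66 ± 0.33, Col4a3 with 0.45 ± 0.23 and Col17a1 with 0.88 ± 0.49. Each had an adjusted p of 0.974 in edgeR's test, with unadjusted values of 0.0684, 0.0709, 0.0768 and 0.0973. Of the 5 high-fat animals, 4 exceeded the control mean for Col8a1, 5 for Col4a3, and 3 for Col4a4 and for Col17a1. The 4 fold changes were 0.50 for Col8a1, 0.13 for Col4a4, 0.30 for Col4a3 and 0.75 for Col17a1 without high-fat animals 4 and 5. Col4a1 was at 0.27 ± 0.21, Col16a1 at 0.42 ± 0.29 and Col14a1 at 0.49 ± 0.39. Col6a2 was at 0.13 ± 0.25 and Col7a1 at 0.01 ± 0.35. Chains below 0 outside the fibrillar class were Col15a1 at -0.16 ± 0.24, Col18a1 at -0.32 ± 0.22 and Col23a1 at -0.82 ± 0.61. The Col23a1 value rested on control 5. Its mean was 0.770 CPM in high-fat animals, 1.34 CPM in control animals and 0.746 CPM in control animals without control 5. Col23a1 did not pass the filter when control 1, 3 or 5 was left out, nor Col4a4 without control 2 or 3, and neither passed the stricter filter. Col13a1 was at 0.15 ± 0.42.

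**Figure D4:**
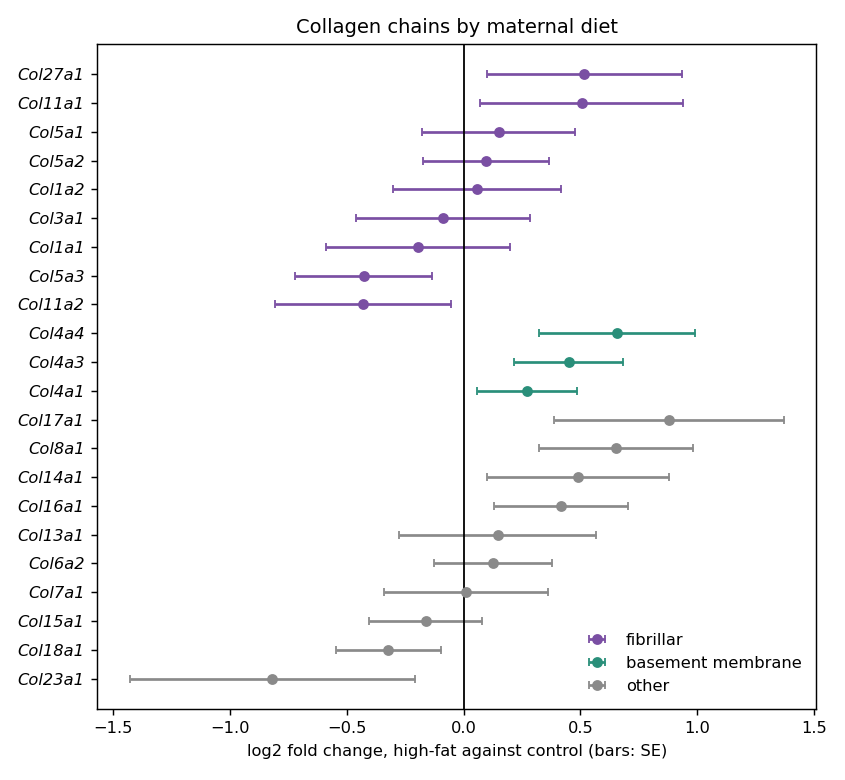
Log2 fold change, high-fat against control, of the 22 tested collagen chains by class, with bars of 1 SE from edgeR's quasi-likelihood fit and a line at 0. The 3 type IV chains lie between 0.27 and 0.66, fibrillar chains lie on both sides of 0, and no chain had an adjusted p under 0.97.

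Ratios within a library need no scaling between libraries. Col1a1 to Col1a2, chains joined in type I collagen, had a count ratio of 0.983 to 1.24 in control animals, with a median of 1.08. In high-fat animals 1 to 5 it was 0.800, 0.964, 1.06, 0.792 and 0.968. The ranges overlapped, and all 5 high-fat animals lay below the control mean. The mean log2 ratio was 0.11 ± 0.12 in control (SD, n = 6) and -0.13 ± 0.19 in high-fat animals (SD, n = 5), a difference of -0.25 (two-sided exact permutation test over all splits into 6 and 5, p = 0.0173, adjusted p = 0.0519 over 3 ratios). The adjusted exact p missed the threshold of 0.05 with all animals and passed it without control 1 or control 2 (0.0476 each) and without high-fat 3 (0.0143). It rose to 0.0857 without high-fat 2 or 5, to 0.114 without high-fat 1 or 4, and to 0.119 without control 3, 4, 5 or 6. Collagen coding sequence is repetitive, and the sources used here do not give how 36-cycle reads that fit both were counted.

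Col3a1 to Col1a1 ran from 1.66 to 2.32 in control animals and from 1.77 to 2.52 in high-fat animals (difference in log2 0.11, exact permutation p = 0.403). Col4a1 to Col1a1, basement membrane against fibril, ran from 0.448 to 1.01 in control animals and was 2.77, 1.30, 0.674, 0.731 and 0.469 in high-fat animals 1 to 5. High-fat animals 1 and 2 lay above all control animals and the others within their range. The difference in log2 was 0.53 (exact permutation p = 0.290, adjusted 0.403), and 0.14 without high-fat 1.

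**Figure D5:**
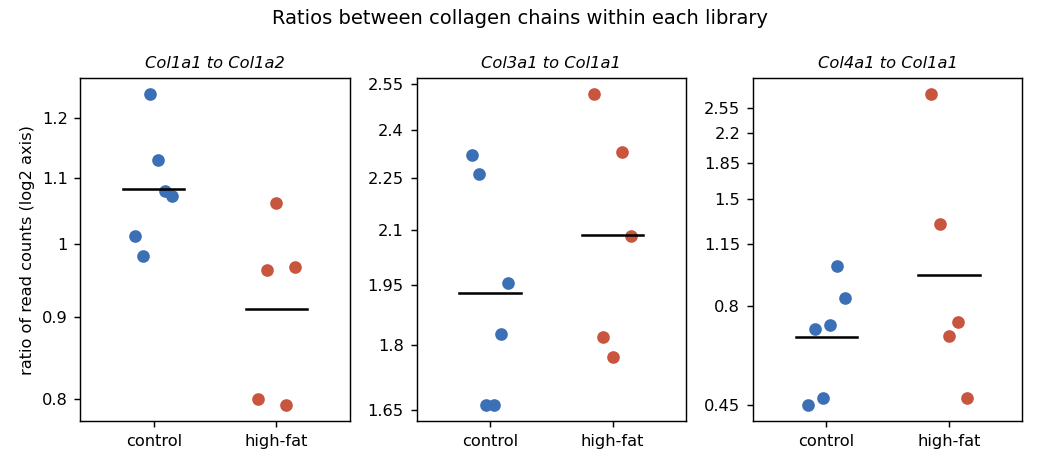
Ratio of read counts between collagen chains in each library on a log2 axis, with 1 point per animal and a bar at the mean of the log2 ratio in each group. For Col1a1 to Col1a2 the 5 high-fat animals lie below the control bar, and for Col4a1 to Col1a1 high-fat 1 stands alone at 2.77.

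Levels of Col1a1, Col3a1, Col4a1 and Col6a2 were set against body weight and total fat as a share of body weight over 11 animals, among the same 15 relations. None passed after adjustment. Col1a1 with fat share had r = -0.61 (permutation p = 0.0396, adjusted 0.119; rho -0.45, p = 0.171), and -0.22 without control 6 and high-fat 1, so the value rests on those animals. Col3a1 with fat share had r = -0.50 (permutation p = 0.108, adjusted 0.231; rho -0.47, p = 0.145; -0.64 without control 6 and high-fat 2). Col4a1 with fat share had r = 0.32 (permutation p = 0.342, adjusted 0.512; rho 0.28, p = 0.404; 0.18 without control 6 and high-fat 1). This value pools groups that ran opposite ways, down with fat share in control animals (r = -0.77, exact permutation p = 0.0736, n = 6) and up in the 5 high-fat animals, a difference that was not tested. The control r was 0.23 without the 2 control animals farthest from their median of Col4a1, a description over 4 animals. Col6a2 with fat share had r = -0.34 (permutation p = 0.317, adjusted 0.512; rho -0.31, p = 0.357; -0.47 without control 6 and high-fat 2). With body weight the 4 genes had r of -0.06, -0.11, -0.32 and -0.13, with adjusted permutation p from 0.512 to 0.869, rho of -0.07, -0.29, -0.28 and -0.13, and r of -0.23, 0.09, 0.26 and 0.26 without the 2 farthest animals.

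Genes of the collagen pathway were also mostly above 0 without a call, where 50.9% of all genes were above 0. Enzymes that hydroxylate and fold collagen chains were above 0 in 15 of 16 tested (median log2 fold change 0.17), and 4 had an unadjusted p under 0.05, all higher (3.45% of all genes were so). P4ha1, a prolyl hydroxylase subunit, was at 0.48 ± 0.09, and P4ha3, another such subunit, was at 1.42 ± 0.59. The edgeR adjusted p of P4ha1 was 0.471, the lowest value of all genes, which other genes shared. Genes of procollagen cleavage and cross-linking were above 0 in 8 of 10 (median 0.17), with Lox, the lysyl oxidase that starts cross-links, at 1.12 ± 0.44 and its relative Loxl1 at 0.37 ± 0.33. Fibril partners were above 0 in 10 of 12 (median 0.29), with the small proteoglycans Prelp at 0.48 ± 0.25 and Dcn at 0.58 ± 0.33. Non-collagen basement membrane genes were above 0 in 3 of 5 (median 0.02), with Lamc1, a laminin chain, at 0.29 ± 0.18 and Agrn, agrin, at -0.17 ± 0.16.

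Collagen receptors were above 0 in 7 of 7 (median 0.44), with Ddr2, a receptor kinase for fibrillar collagen, at 0.61 ± 0.28 and Mrc2, an uptake receptor for collagen, at 0.63 ± 0.32. Breakdown genes and their inhibitors were above 0 in 7 of 8 (median 0.32), with the metalloproteinase inhibitors Timp1 at 0.81 ± 0.30 and Timp3 at 0.51 ± 0.23. TGF-beta genes, the signal best known to drive collagen synthesis, were above 0 in 12 of 13 (median 0.17), with the co-receptor Tgfbr3 at 0.69 ± 0.16 (edgeR adjusted p = 0.883). Genes higher at an unadjusted p under 0.05 in edgeR's test numbered 1 of 10 in cross-linking and 1 of 7 among receptors. They numbered 2 of 8 in breakdown, 2 of 13 in TGF-beta and 0 in both partner lists. No pathway list held one lower at that level. Over all genes, 3.45% were higher and 1.39% lower at that level. These lists were not recomputed with animals left out. Each pathway list held 0 called genes. Fibroblast markers were above 0 in 8 of 9 (median 0.43) and macrophage markers in 8 of 8 (median 0.69), and their part in these values was not tested. The macrophage markers summed to 440, 129, 268, 528 and 875 CPM in high-fat animals 1 to 5, against 160 to 440 CPM in control animals. Dcn and Lum are in both the fibroblast and the fibril partner lists.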

How the data were processed

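Per the labels' protocols, poly(A) RNA from 2 µg of total RNA per animal was sequenced for 36 cycles. The authors deposited raw read counts per gene symbol. FastQC, BWA, HTSeq and edgeR are named in the submitters' processing notes. Not given in the sources used here are their versions, the build, the annotation and the strand setting. Genes were kept by filterByExpr (10814 kept, 5996 removed), scaled by TMM (factors 0.897 to 1.12) and tested in edgeR 4.0.16 by the quasi-likelihood F test over all 11 libraries with Benjamini-Hochberg adjustment at 0.05. Log2 CPM used a prior count of 2. Other versions were R 4.3.3, limma 3.58.1, DESeq2 1.42.0 and SciPy 1.17.1. The gene test was also tested on simulated data. Named chains were the 12 with the highest mean CPM and the 6 with the smallest p. Col23a1 was added after its values were seen. From each pathway list the 2 genes with the smallest p were named, and from all genes the 5 most like Col1a1 and Col4a1. A gene that this rule picks is not reported here, though it stayed in the fit and its list. The members and lists were chosen with earlier results of these data known. Alternatives were other scalings, filters and tests, a covariate from the initial letter of animal names, and leaving out animals.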

Additional observations from a re-analysis of the deposited data

Results flagged for a closer look

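In 4 of 48 checks, of 17 chains, 4 sums and 3 ratios in each group, 1 animal stood far from the others; chance alone marks about 1 in 20 such checks. Col23a1 was checked after its values were seen, so its case does not count against that rate. Control 3 had 4.93 CPM of Col4a3, where the other control animals had 2.20 to 3.12 CPM. The same animal had 86.3 CPM of Col5a1, where the others had 24.1 to 46.6 CPM, and it also had the highest Col1a1, Col1a2 and Col3a1 of all animals. High-fat 2 had 6.40 CPM of Col16a1, where the other high-fat animals had 15.2 to 16.8 CPM. Control 5 had 4.32 CPM of Col23a1, where the other control animals had 0.381 to 1.39 CPM, in the library with the highest nerve markers.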

How the results depend on the processing

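Collagen chains called stayed at 0 in the 21 alternatives run. Genes called were 7 by DESeq2 and 8 by edgeR's likelihood ratio test, against 0. Of the values recomputed, 669 kept their sign and call, 45 changed sign and 5 gained a call. Of the 45, 15 were untested sums and medians, 7 of them the difference in summed collagen with 1 animal left out. Limma voom gave -0.0022 for the log2 fold change of Col1a2. Without high-fat animals 4 and 5 the log2 fold change was -0.054 for Col14a1, -0.32 for Col1a2, -0.16 for Col5a2, -0.21 for Col5a1 and -0.14 for Col6a2. Leaving out 1 animal at a time, it ran from -0.25 to 0.14 for Col3a1, -0.39 to 0.12 for Col1a1, -0.092 to 0.30 for Col1a2, -0.030 to 0.25 for Col5a2 and -0.010 to 0.25 for Col6a2. The difference in log2 ratio of Col1a1 to Col1a2 ran from -0.30 to -0.20, and r from -0.42 to 0.18 for Col1a1 with body weight, -0.39 to 0.10 for Col3a1 with body weight, -0.32 to 0.24 for Col6a2 with body weight, -0.025 to 0.67 for Col1a1 with Col4a1, -0.18 to 0.63 for Col4a1 with Col15a1 and -0.089 to 0.53 for Col4a1 with fat share. The cause was not tested. Levels per transcript length were planned and not run for want of lengths. The planned relations that need Col4a2 or Col6a1 were not run because these chains have no row in the counts used here. The 5 chains under 1 CPM rest on 21 to 144 reads each.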

Other observations

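Within the 6 control animals, all 4 chains tested had negative r with body weight and with fat share, and none of these 8 relations passed after adjustment. They were looked at after the values over all 11 animals were seen. Body weight ran from 642 to 909 g in control animals, and control 3, the lightest, had the most Col1a1 and control 6, the heaviest, the least. Col3a1 with body weight had r = -0.92 (exact permutation p = 0.0139 over 720 pairings, adjusted 0.0889; rho -0.83, p = 0.0583). Col1a1 had r = -0.90 (exact permutation p = 0.0222, adjusted 0.0889; rho -0.77, p = 0.103), Col6a2 r = -0.81 (exact permutation p = 0.0458, adjusted 0.108; rho -0.77, p = 0.103) and Col4a1 r = -0.72 (exact permutation p = 0.111, adjusted 0.111; rho -0.60, p = 0.242). With fat share r was -0.76 for Col1a1, -0.77 for Col3a1, -0.77 for Col4a1 and -0.73 for Col6a2, each with an adjusted exact p of 0.108. The 2 animals farthest from the median of the gene were then left out, which leaves 4 control animals. There r with body weight was -0.63 for Col3a1, -0.40 for Col1a1, 0.02 for Col6a2 and 0.54 for Col4a1. With fat share it was 0.07 for Col3a1, 0.58 for Col1a1, 0.53 for Col6a2 and 0.23 for Col4a1. Thus no chain kept a negative r with fat share, nor Col6a2 and Col4a1 with body weight. An r over 4 animals is a description only and cannot show that a relation holds or fails. Leaving those animals out also narrows the range of levels. High-fat animals 1 to 5 weighed 609, 734, 884, 900 and 625 g. The lightest, high-fat 1 and 5, had 124 and 432 CPM of Col1a1, and the heaviest, high-fat 3 and 4, had 464 and 355 CPM. Col4a1 stood at 344 and 203 CPM in the lightest and at 313 and 260 CPM in the heaviest. A trend with weight is not claimed for these 5 animals. No r is given for the 5 high-fat animals, and the difference between groups was not tested.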
